A study of Homo sapiens with 4 samples.

Results

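The short arm of chromosome 9 (9p) was taken as the first 39 Mb of the chromosome in GRCh37, and its members are the ATAC-seq regions whose midpoint falls there in the union of 3 lists of regions gained on drug treatment. There were 415 such regions among 100205 in the union. The rule chose members within the lists by position, and the lists themselves hold only regions gained over control (highest deposited p 0.05, lowest log2 fold 1.5 in the authors' deposited table), so treated signal above control is fixed by that choice. ATAC-seq reads out open DNA by the sites where a transposase inserts sequencing adapters. The cells were K562, an established human chronic myelogenous leukaemia line, and the study asked how anthracycline drugs differ in what they do to chromatin. Cells received doxorubicin (Doxo) at 10 µM, N,N-dimethyldoxorubicin (diMe-Doxo) at 10 µM or aclarubicin (Acla) at 20 µM, each for 4 h, or were left untreated as the control. GEO gives 1 sample per group, while each list holds 2 treated libraries and the same 2 control libraries. Whether these came from separate cultures is not stated, so p-values measure only the spread between these libraries, which may be technical. All groups share the K562 genome, with its own deletions and amplifications, and untreated K562 served as the only control.

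The band 9p21 holds CDKN2A, which encodes the cell-cycle inhibitor p16INK4a and, from another first exon, p14ARF, a stabiliser of p53. Its neighbours are CDKN2B, which encodes the related inhibitor p15INK4b, and MTAP, an enzyme of methionine salvage. They are often deleted together in cancer, and K562 is known to lack CDKN2A. Anthracyclines insert between base pairs of DNA and can displace histones. Doxo also traps topoisomerase II on broken DNA, and diMe-Doxo differs from it by added methyl groups on the amine of its sugar.

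In the RefSeq gene order (GRCh38.p14) the genes towards the chromosome end from CDKN2A were MTAP, IFNE, IFNA1, IFNA8 and further type I interferon genes, whose products are antiviral cytokines. All 16 genes of the interferon list lay on that side. The interferon gene IFNK had been placed in another list and lay on the centromere side. Towards the centromere came CDKN2B, DMRTA1, ELAVL2 (a neuronal RNA-binding protein), IZUMO3, TUSC1, CAAP1, PLAA and IFT74 (a subunit of the ciliary transport complex). The RefSeq promoters of MTAP, CDKN2A and CDKN2B are shown because they mark the locus that defines the deletion, and none of the lists holds a region over the GRCh37 interval of CDKN2A. Each runs for 300 bases around the start, mostly before it, on the gene's own strand, 5′ to 3′, with every CG in capitals.
MTAP: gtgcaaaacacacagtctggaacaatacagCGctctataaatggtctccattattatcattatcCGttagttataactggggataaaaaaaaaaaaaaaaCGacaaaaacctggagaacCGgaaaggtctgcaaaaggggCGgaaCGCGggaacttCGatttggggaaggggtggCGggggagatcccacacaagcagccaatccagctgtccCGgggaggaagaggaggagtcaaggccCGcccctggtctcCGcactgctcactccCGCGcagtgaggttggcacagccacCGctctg
CDKN2A, first listed start: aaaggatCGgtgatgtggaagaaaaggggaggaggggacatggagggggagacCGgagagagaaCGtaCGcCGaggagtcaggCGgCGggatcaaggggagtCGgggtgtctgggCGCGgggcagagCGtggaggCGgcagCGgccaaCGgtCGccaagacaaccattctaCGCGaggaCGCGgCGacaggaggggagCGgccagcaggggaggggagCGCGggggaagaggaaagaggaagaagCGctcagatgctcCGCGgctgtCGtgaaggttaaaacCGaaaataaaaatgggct
CDKN2A, second listed start: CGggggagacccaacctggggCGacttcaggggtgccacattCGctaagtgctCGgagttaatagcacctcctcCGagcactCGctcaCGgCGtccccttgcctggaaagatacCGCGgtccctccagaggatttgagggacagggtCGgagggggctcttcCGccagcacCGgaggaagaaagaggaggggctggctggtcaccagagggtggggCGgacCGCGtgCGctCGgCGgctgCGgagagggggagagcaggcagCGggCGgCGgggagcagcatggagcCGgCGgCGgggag
CDKN2B: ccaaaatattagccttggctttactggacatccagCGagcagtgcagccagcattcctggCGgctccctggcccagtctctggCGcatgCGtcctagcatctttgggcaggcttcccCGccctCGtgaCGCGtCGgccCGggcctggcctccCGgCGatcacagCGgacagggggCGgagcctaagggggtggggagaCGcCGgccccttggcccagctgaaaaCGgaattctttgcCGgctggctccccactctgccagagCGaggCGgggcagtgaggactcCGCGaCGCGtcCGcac
The motif CG reads the same on both strands. It occurred 15 times in the MTAP promoter, 28 and 26 times at the CDKN2A starts and 25 times in the CDKN2B promoter, against a median of 14 over 35116 RefSeq promoters of the same length. Of those promoters, 48.9% held at least as many CG as MTAP, 26.2% and 30.1% as many as the CDKN2A starts, and 32.0% as many as CDKN2B. The regions are in GRCh37 and the gene table is in GRCh38.p14, so no region was assigned to a gene, and no region sequence was read.

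No list held a region between the end of chr9:20620134-20622794 and the start of chr9:31981422-31981974, a stretch of 11.4 Mb. It began 1.35 Mb before CDKN2A and ended 9.99 Mb after it. The Doxo list alone had the same limits. In the diMe-Doxo list the stretch ran from 20298119 to 32449402, or 12.2 Mb, and in the Acla list from 20514357 to 31981422, or 11.5 Mb. Against this, the next longest stretches with 9p regions at both ends were 0.723 Mb (15299174 to 16021948) and 0.699 Mb (8859381 to 9558325). The one after these was 0.575 Mb (12902078 to 13476868). A stretch of 5.43 Mb, from 38739926 to 44174395, was not ranked with them. It began at the last 9p region and ran past the end of the part taken as 9p. The long arm (9q) was taken as the 70 Mb from 71 Mb on. Its longest stretch with 9q regions at both ends was 0.822 Mb, from 73942070 to 74763855.

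Among all stretches between neighbouring regions on chromosomes 1 to 22 and X, the one at CDKN2A ranked 3. The longer ones were 23.5 Mb on chromosome 1, from 120468411 to 144011983, and 21.4 Mb on chromosome 9, from 44175455 to 65602464. In all, 22 stretches on 19 chromosomes exceeded 3 Mb. Where the other 21 lie against centromeres and heterochromatin was not read from an annotation. They include a stretch of 5.43 Mb on chromosome 9, from 38739926 to 44174395. The longest stretch below 3 Mb, ranked 23, was 2.07 Mb on chromosome 5. The lists hold gained regions only. Missing DNA and DNA that was present without a gain therefore cannot be told apart in them, and the limits above are limits of the listed regions and not breakpoints.

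**Figure D1:**
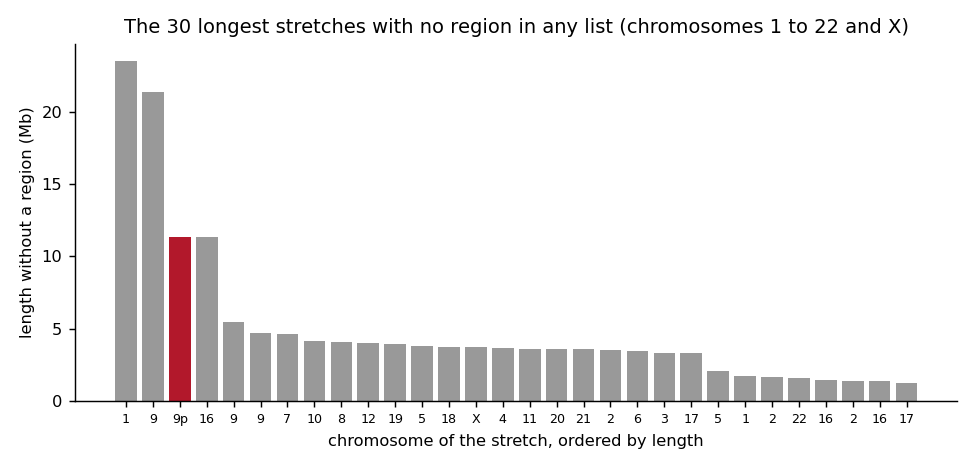
The 30 longest stretches between neighbouring regions of the union on chromosomes 1 to 22 and X, with the length in Mb on one axis and each bar labelled by its chromosome. The stretch at CDKN2A (11.4 Mb) ranks 3, and lengths drop to 2.07 Mb at rank 23.

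The regions next to the stretch are given with their signal, which is the authors' normalised read value per library on a scale of its own in each list. On the side of the chromosome end, chr9:20620134-20622794 was listed for Doxo alone, with 108 and 110 in Doxo libraries against 15.8 and 1.39 in control libraries. Its log2 fold was 3.66 and its false discovery rate (FDR) 0.00153 in the authors' deposited table. The control libraries lay far from each other there. Before it came chr9:20513233-20514357 with Acla signal 32.13 and 24.98 against 2.85 and 2.44 in control libraries, and chr9:20317286-20318451 with Acla signal 49.3 and 40.4 against 2.85 and 14.7.

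On the centromere side, chr9:31981422-31981974 had 12.8 and 22.5 in Doxo libraries against 1.44 and 1.39 in control libraries. In the Acla list it had 13.8 and 11.5 against 2.85 and 2.44. Its FDR was 0.0044 for Doxo and 0.0633 for Acla in the authors' deposited table, and a peak had been called in 2 of 2 Doxo and 1 of 2 Acla libraries. The region chr9:32449402-32450252 followed, with log2 folds of 3.93 for Doxo and 2.56 for diMe-Doxo in the authors' deposited table. The next, chr9:32566122-32567231, was listed for Doxo alone, with 76.1 and 90.1 against 4.32 and 1.39 in control libraries.

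Outside the stretch, 9p gained fewer regions per Mb than 9q in every list. Over 27.6 Mb of 9p there were 310 Doxo regions, 171 diMe-Doxo regions and 239 Acla regions, or 11.2, 6.19 and 8.65 per Mb. Over 70 Mb of 9q there were 2030, 1452 and 1716, or 29, 20.7 and 24.5 per Mb. For the union the density was 15.01 per Mb on 9p and 42.1 per Mb on 9q, a ratio of 0.357. The share of a whole list that fell on 9p was 0.465% of the Doxo list (95% Wilson interval 0.416 to 0.519), 0.324% of the diMe-Doxo list (0.279 to 0.376) and 0.390% of the Acla list (0.344 to 0.442). On 9q these shares were 3.04%, 2.75% and 2.80%. Intervals cover counting error only. Copy number and gene density of the arms were not measured, and their part in the difference was not tested.

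**Figure D2:**
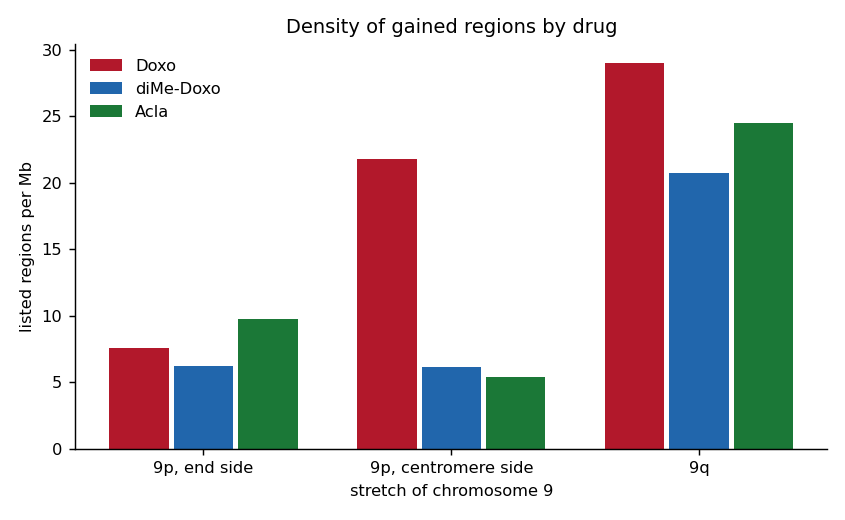
Listed regions per Mb for Doxo, diMe-Doxo and Acla on both sides of the CDKN2A stretch on 9p and on 9q. For Doxo the densities were 7.61 per Mb on the chromosome-end side, 21.8 on the centromere side and 29 on 9q.

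The sides of the stretch differed from each other. The distal side, towards the chromosome end, spans 20.6 Mb and held 157 Doxo regions, 128 diMe-Doxo regions and 201 Acla regions, or 7.61, 6.21 and 9.75 per Mb. The proximal side, towards the centromere, spans 7.02 Mb and held 153, 43 and 38, or 21.8, 6.13 and 5.41 per Mb. Doxo and diMe-Doxo shared dose and exposure time. The Doxo list held 3.56 times as many regions as the diMe-Doxo list on the proximal side and 1.23 times as many on the distal side, beside 1.40 on 9q and 1.26 over the genome. With stricter limits (FDR at most 0.01 and log2 fold at least 2) these ratios were 7.75 and 1.84, beside 1.95 and 1.62. Acla was given at another dose, so its counts stand beside these as a description, and no ratio to them was taken. The medians of neighbouring region spacing were 42.7 kb on the distal side, 11.6 kb on the proximal side and 7.83 kb on 9q.

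By windows of 1 Mb, 10 windows of 9p held no region, those from 21 to 31 Mb. The other 29 windows had medians of 8 Doxo, 4 diMe-Doxo and 6 Acla regions, and from 1 to 49 for the union. The 70 windows of 9q had medians of 18, 14.5 and 20. Doxo had more regions than diMe-Doxo in 8 of 8 proximal windows, in 10 of 21 distal windows and in 40 of 70 windows of 9q. The window from 37 to 38 Mb held 49 Doxo, 6 diMe-Doxo and 5 Acla regions. The window from 35 to 36 Mb held 26, 4 and 6, and that from 38 to 39 Mb held 27, 19 and 16. From 33 to 34 Mb there were 19, 0 and 1. Distal windows were mixed: the Acla list held more regions than the Doxo list in 12 of 21, fewer in 7 and as many in 2. Acla was given at 20 µM and Doxo at 10 µM, so drug and dose cannot be told apart in these counts. The fullest distal windows for Acla were these. The window from 16 to 17 Mb held 13 regions with Doxo, 18 with diMe-Doxo and 34 with Acla. From 1 to 2 Mb there were 13, 13 and 28. In the window from 17 to 18 Mb the counts were 7, 8 and 16. Other distal windows had most regions with Doxo, such as 12, 4 and 3 from 5 to 6 Mb and 8, 1 and 3 from 4 to 5 Mb. Among chromosome 9 windows with at least 20 Doxo regions, the ratio of Doxo to diMe-Doxo counts was 8.17 from 37 to 38 Mb and 6.5 from 35 to 36 Mb, and the next were 5.75 and 5.67, both on 9q.

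**Figure D3:**
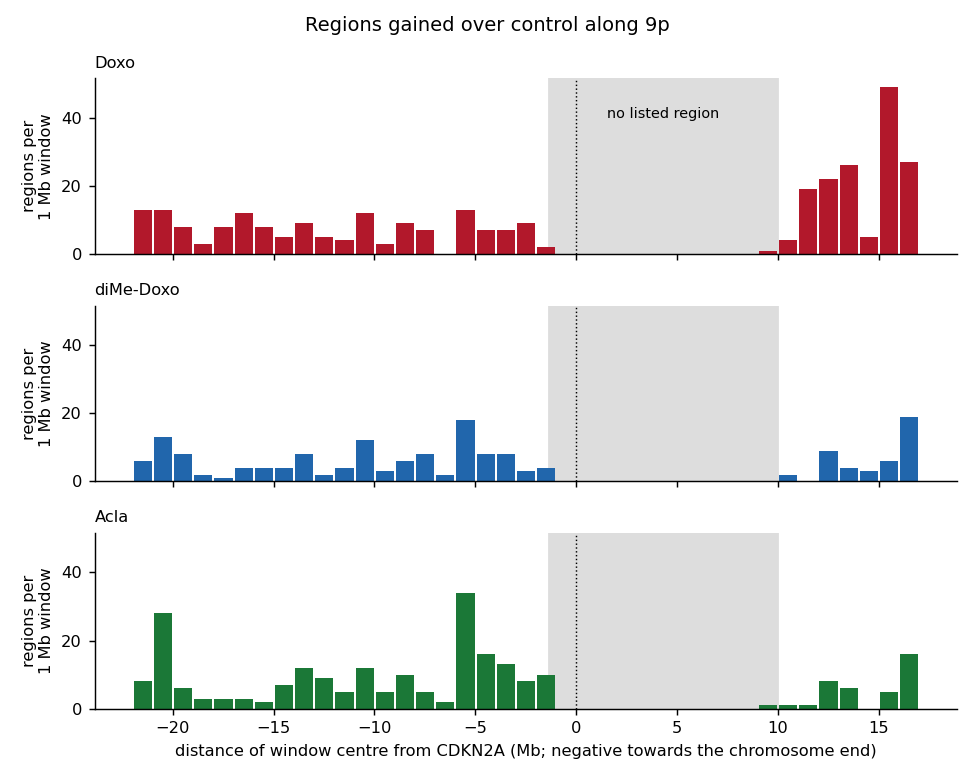
Regions per 1 Mb window along 9p for Doxo, diMe-Doxo and Acla, by distance from CDKN2A in Mb (dotted line), with the stretch without regions shaded. The 10 windows from 21 to 31 Mb are empty in all lists, and the Doxo count of 49 from 37 to 38 Mb is the highest on the arm.

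Of the 415 regions, 149 (35.9%) were listed for Doxo alone, 112 (27.0%, Wilson interval 22.9 to 31.5) for all 3 drugs and 64 (15.4%) for Acla alone. A further 32 were listed for diMe-Doxo and Acla, 31 for Doxo and Acla, 18 for Doxo and diMe-Doxo and 9 for diMe-Doxo alone. On 9q, 32.9% were listed for Doxo alone, 27.4% for all 3 drugs and 13.9% for Acla alone. Over the whole union these shares were 29.5%, 28.7% and 13.8%. The share of all 3 drugs on 9p as a whole was near that of the genome. Its sides differed, with 34.6% on the distal side and 14.9% on the proximal side. Regions of Doxo alone were 107 of the 161 on the proximal side (66.5%, 58.9 to 73.3) and 42 of the 254 on the distal side (16.5%, 12.5 to 21.6). Regions of Acla alone were 1 and 63 on these sides. Of the Doxo regions, 23.5% on the proximal side and 59.9% on the distal side were also listed for diMe-Doxo, beside 46.5% on 9q and 49.7% over the genome. Neighbouring regions are not independent draws, so these intervals describe counts along 1 genome.

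**Figure D4:**
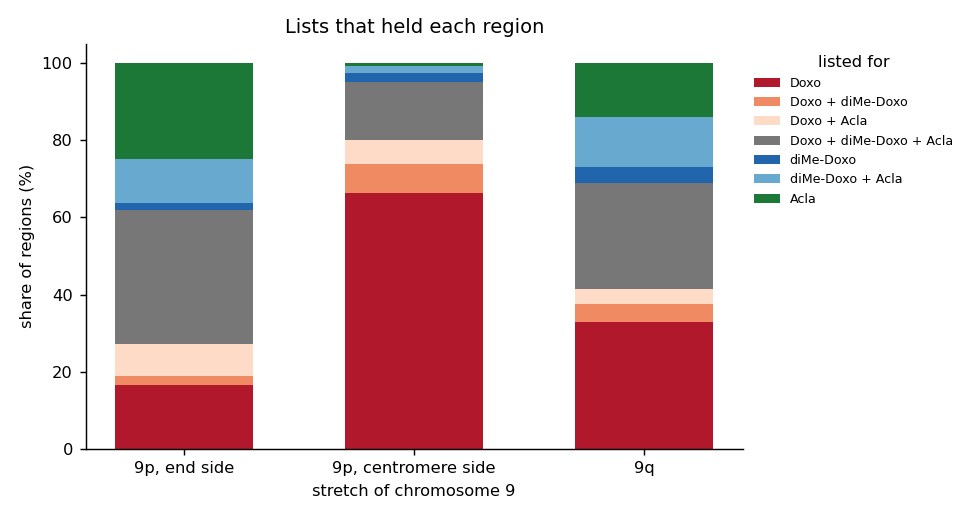
Share of regions by the drugs for which they were listed, on both sides of the CDKN2A stretch and on 9q, stacked in percent. Doxo alone takes 66.5% of the proximal side and 16.5% of the distal side.

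The regions listed for Doxo alone on the proximal side had a median width of 603 bp and medians of 45 and 51 reads in the Doxo libraries. The authors called no peak in either control library at 91 of these 107 (85.0%), and 10 had one in both control libraries. On the distal side the Doxo-alone regions had 30.5 and 36 reads, and 35 of 42 (83.3%) had no control peak. On 9q this share was 73.9% of the Doxo-alone regions. For all Doxo regions the authors' deposited table gave a median log2 fold of 3.17 on the distal side, 3.25 on the proximal side, 3.02 on 9q and 2.95 over the genome. For Acla the medians of the log2 fold in the authors' deposited table were 2.79 on the distal side, 2.29 on the proximal side and 2.57 on 9q. Doxo regions had mean control reads of 2.27 and 2.12 on the distal side, 3.44 and 3.50 on the proximal side and 3.80 and 4.47 on 9q, with median widths of 1022, 675 and 800.5 bp. Where a control library stands at 1 read the fold depends on that read, and both controls stood there at 46.5% of distal and 26.1% of proximal Doxo regions.

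By the deposited FDR, the leading Doxo region was chr9:34370925-34373077, with signal of 246 and 295 in Doxo libraries against 2.88 and 1.39 in control libraries. Its log2 fold was 6.99 and its FDR 1.12e-10 in the authors' deposited table. The same region had 24.1 and 22.1 in diMe-Doxo libraries against 4.81 and 2.03, and 24.7 and 21.1 in Acla libraries against 5.7 and 2.44. The log2 folds were 2.76 for diMe-Doxo and 2.49 for Acla in the authors' deposited table, and a peak had been called there in 2 Doxo, 0 diMe-Doxo and 0 Acla libraries. The next were chr9:5040748-5042090, with a Doxo log2 fold of 6.85 in the authors' deposited table, and chr9:34318124-34319761, listed for Doxo alone with 97.4 and 126 against 1.44 and 1.39 in control libraries.

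The leading regions for diMe-Doxo and Acla lay on the distal side. The region chr9:2932753-2934497 led both lists, with a diMe-Doxo log2 fold of 4.75 and an Acla log2 fold of 4.94, beside a Doxo log2 fold of 5.25, in the authors' deposited table. For diMe-Doxo it was followed by chr9:18776588-18778337 and chr9:8052862-8053974, with log2 folds of 4.07 and 4.26 in the authors' deposited table. For Acla it was followed by chr9:1199631-1201628, with 90.8 and 66.9 in Acla libraries against 2.85 and 2.44 in control libraries, and chr9:12090894-12092642. Their Acla log2 folds were 4.9 and 4.4 in the authors' deposited table. Of regions of a single drug, chr9:2643162-2643687 led for diMe-Doxo with 12.5 and 12.4 against 2.41 and 2.03, and chr9:20308158-20309286 led for Acla with 36.2 and 30.4. The widest region, chr9:35790177-35793298, spans 3121 bp and was listed for Doxo alone, with 303 and 334 against 12.97 and 41.6 in control libraries. Both control libraries had a called peak there, as they did at chr9:37738856-37741357, which spans 2501 bp and was also listed for Doxo alone.

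Doxo and diMe-Doxo, the only pair at matched dose and time, were compared at the 33140 regions in both lists, of which 130 lie on 9p. The test was limma on log2(signal + 0.5) with Benjamini-Hochberg adjustment over all 33140 regions and an adjusted p limit of 0.05, and diMe-Doxo signal was multiplied by 0.640 to match the shared controls. Signal was higher with Doxo at 42 of the 130 regions, or 32.3%, beside 35.8% of the 944 on 9q and 28.1% of all regions tested. It was lower at 0, beside 4.03% on 9q and 2.7% of all regions tested. Before adjustment, 51 had a p under 0.05 with higher signal and 1 with lower signal. No count test is reported. The median log2 difference, Doxo minus diMe-Doxo, was 0.44 on 9p, 0.40 on 9q and 0.26 over all tested regions. It was 0.84 over the 36 proximal regions, 17 of them higher, and 0.31 over the 94 distal regions, 25 of them higher. With the median over all regions set to 0, which takes 0.26 from every difference, 34 regions of 9p were higher and 1 was lower. These counts then stood beside 30.3% and 8.58% on 9q and 22.8% and 6.7% of all regions.

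Among the called regions the log2 difference ran from 0.70 to 4.14, with a median of 1.70. The lowest p belonged to chr9:34370925-34373077, with 246 and 295 in Doxo libraries against 15.4 and 14.1 in diMe-Doxo libraries on the Doxo scale. Its log2 difference was 4.14 with a standard error of 0.23 (limma, Benjamini-Hochberg adjusted p = 1.01e-15). At chr9:5110896-5113037 the values were 346 and 425 with Doxo against 36.3 and 22.4 with diMe-Doxo, a log2 difference of 3.73. At chr9:5040748-5042090 they were 161 and 165 against 15.7 and 8.24, a log2 difference of 3.78. The Doxo and diMe-Doxo libraries did not overlap at these 3 regions. They were picked by the lowest p of this same test, so that separation adds no support. The lowest p for a lower signal was at chr9:11240781-11242213, with 27.7 and 11.3 with Doxo against 34.3 and 25.9 with diMe-Doxo. The libraries overlapped there, and the log2 difference was -0.73 with a standard error of 0.35 (limma, Benjamini-Hochberg adjusted p = 0.122). It was followed by chr9:16371032-16372538 and chr9:1526720-1528207, with log2 differences of -0.65 and -0.85.

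**Figure D5:**
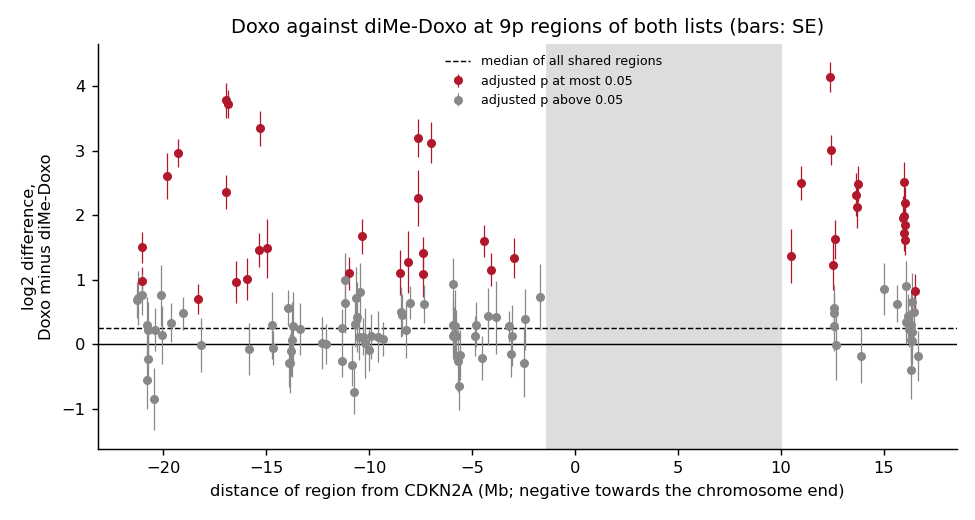
Log2 difference of Doxo minus diMe-Doxo at the 130 regions of 9p in both lists, by distance from CDKN2A in Mb. Points are limma estimates with standard errors, called regions are red, and the dashed line is the median of all shared regions (0.26). The 42 called regions all lie above 0, from 0.70 to 4.14.

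Called regions ran together in places, which were looked for after the values were seen. A run counts neighbouring tested regions and passes over listed regions that could not be tested. Of the tested regions, 47.2% were higher with Doxo on the proximal side, 26.6% on the distal side and 28.1% over the genome. Whether runs exceed what these shares give was not tested. The densest run held 7 called regions in 91.3 kb, chr9:37923593-38014922, with log2 differences from 1.61 to 2.51, among 13 listed regions. A run of 5 spanned chr9:5040748-6035410, where 12 regions were listed. Another run of 5 spanned chr9:32449402-34522634 next to the CDKN2A stretch, over 2.07 Mb. That last interval held 32 listed regions, of which 5 were in both lists and could be tested. A further 25 were of Doxo alone, a class that made up 66.5% of the whole proximal side and 29.5% of the union.

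The share of each library's 9p signal that lay on the proximal side needs no scaling between lists. Over the 130 regions it was 35.9% and 34.3% in Doxo libraries, against 27.5% and 27.6% in diMe-Doxo libraries. The libraries did not overlap, and the means were 35.1% ± 1.16 and 27.6% ± 0.13 (SD, n = 2 each). The difference was 7.56 percentage points (two-sided exact permutation test, p = 0.333, the smallest that 2 libraries against 2 can give). This comparison of the sides was not planned beforehand. Over the 112 regions of all 3 drugs the shares were 35.9% and 34.6% in Doxo libraries, 23.8% and 22.9% in diMe-Doxo libraries, and 14.1% and 17.9% in Acla libraries.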

How the data were processed

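ATAC-seq regions of K562 cells were analysed in 4 groups from 3 deposited lists of gained regions. Regions were compared with DiffBind on GRCh37, per the submitters' processing notes; for the aligner, peak caller and normalisation, these sources give no name. The lists have no header, so columns were read from their values. The authors deposited a log2 fold and group means on the log2 scale, a p-value with its FDR, and a signal per library. The highest deposited p-value was 0.05 and the lowest log2 fold 1.5, so regions that fell or did not pass were not analysed here. Coordinates are as deposited.

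In all libraries the deposited signal was whole reads times 1 factor per library: with the factor taken from the spacing of low values, 100% of values were whole within 0.1 reads. Reads in listed regions were 4405541 and 4837225 for Doxo, and the full depth is unknown. In the treated diMe-Doxo and Acla libraries the lowest value was 9 to 16 reads and not 1, so the factor rests on the spacing alone there. No count test is reported, and limma on the log scale was used. Control reads were the same at all 33140 regions shared by the Doxo and diMe-Doxo lists, which set the common scale.

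Regions were assigned by midpoint. Members, gene lists and the rules for named regions (nearest to the stretch, lowest FDR or p, widest, fullest windows) were chosen with earlier results of these data known. Gene lists could only be placed by order, since no annotation of the files' build was used. Alternatives were stricter list limits, no control peak, any overlap, each list alone, other pseudocounts (1 and 5), a filter at a mean of 30 reads (counted in steps of each library's values), a centred fit, and each library left out. Tools were Python 3.11.15, pandas 2.3.3, scipy 1.17.1, R 4.3.3 and limma 3.58.1.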

Additional observations from a re-analysis of the deposited data

How the results depend on the processing

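The limits of the CDKN2A stretch were the same with stricter limits (FDR at most 0.01 and log2 fold at least 2), without regions that had a control peak, and with any overlap; it measured 12.2 Mb in the diMe-Doxo list alone and 11.5 Mb in the Acla list alone. Stricter limits left 232 regions on 9p and raised the Doxo to diMe-Doxo ratio there to 3.13, beside 1.95 on 9q and 1.62 over the genome. They lowered the share of all 3 drugs on 9p to 15.1%. No share for 9q or the genome under these limits is given, so whether that drop is particular to 9p was not tested. With the lists as deposited, the Doxo to diMe-Doxo ratio was 3.56 on the proximal side alone, against 1.81 for the arm. Regions called lower with Doxo numbered 1 of 130 (0.77%) with the median difference set to 0, beside 6.7% of all regions. With the other pseudocounts or the read filter they numbered 0, beside 2.73% to 3.58% of all regions. Regions called higher were 34 (26.2%, beside 22.8% of all regions) in the centred fit. They were 42 (32.3%, beside 28.2%) and 44 (33.8%, beside 28.5%) with pseudocounts 1 and 5. The read filter left 102 regions of 9p, 42 of them higher (41.2%, beside 33.6%). Without Doxo library 1 or 2, the median log2 difference was 0.58 or 0.53 on 9p, beside 0.34 or 0.29 over all regions. Without diMe-Doxo library 1 or 2 this median was 0.60 or 0.43, beside 0.38 or 0.15. The region chr9:11240781-11242213 passed the limit in the centred fit, with a log2 difference of -0.99. Its log2 difference was -1.36 without Doxo library 1 and -0.10 without Doxo library 2. Without diMe-Doxo library 1 or 2 it was -0.53 or -0.93. For chr9:1526720-1528207 the log2 difference was -0.30 without Doxo library 1 and -1.40 without Doxo library 2. Without diMe-Doxo library 1 or 2 it was -0.61 or -1.09. The difference in proximal share, itself not planned, was 11.9 points at regions of all 3 drugs, an alternative chosen after seeing the data. It was 6.74 to 8.38 points with 1 library left out. With 9q taken only up to 130 Mb, which leaves out ABL1, amplified in K562, the density of 9p over 9q was 0.444. The causes of these shifts were not tested. The edgeR and DESeq2 alternatives planned for recovered reads were fitted and then left out, so their values are not given. A check that decided on count tests takes a library's lowest value as 1 read. The treated diMe-Doxo libraries failed it, since their lowest values are 11 and 9 reads by the spacing of their values. Reads given in the text rest on that spacing and not on the check. No paired analysis was possible because the columns carry no replicate labels that join libraries of different groups. Few control reads at listed regions limit the precision of folds.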

Other observations

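Between the windows taken as 9p and 9q, from 39 to 71 Mb, the union held 4 regions. They were chr9:44174395-44175455 for Acla, chr9:65602464-65603020 for Doxo, chr9:66455392-66456550 for all 3 drugs and chr9:66516635-66517992 for Doxo. A further 3 regions of chromosome 9 lay beyond the window of 9q.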
